A study of Homo sapiens with 12 samples.

Results

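Interferon-stimulated genes encode the antiviral and immune-signalling proteins that a cell makes once it senses interferon, and 39 of them were followed here by name in IMR90 cells made senescent with doxorubicin. Each of the 39 symbols matched 1 of the 61541 gene identifiers in the deposited tables. IMR90, labelled wild type, is a long-used human cell line of fetal lung fibroblasts, and doxorubicin is an anthracycline that damages DNA. Polyadenylated RNA was sequenced from 4 groups of 3 libraries: a 2 kPa gel with 250 nM doxorubicin, plastic with 250 nM, the 2 kPa gel with 100 nM, and plastic with 100 nM. All 4 groups shared the exposure of 24 h and a later culture of at least 8 days, and no library of cells without the drug was among the 12. The titles give the doses in nM where the treatment protocol has the same figures in µM, and the soft substrate is a hydrogel in the design text but PDMS-coated plates in the growth protocol, so the wording of the titles was kept. The question, from the series title, is how the stiffness of the substrate bears on the transcriptome of senescent lung fibroblasts. Nothing in the labels says whether the 3 libraries of a group were separate cultures, so p-values measure only the spread between these libraries.

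Type I interferons bind the receptor pair IFNAR1 and IFNAR2, whose kinases JAK1 and TYK2 phosphorylate STAT proteins. STAT2 then pairs with a second STAT protein and with IRF9 to form the factor ISGF3, which binds the interferon-stimulated response element in promoters of this gene family. Senescent fibroblasts with damaged DNA can switch the pathway on through the DNA sensor cGAS and its partner STING, and many members also keep a low basal expression without added interferon.

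The promoters are shown because the response element is what many members are known to share, so a high share of members with it is no independent result. RefSeq promoter windows of 300 bases, 250 before and 50 after the start of a gene on GRCh38.p14, were on hand for 31 of the 39 members. The searched core was GAAANNGAAA, read on either strand (TTTCNNTTTC on the other), in which N is any base and overlapping matches were counted separately. It was present in 21 of the 31 members (67.7%), against 1195 of 27305 symbols in the whole table (4.38%). The gamma-activated site TTCNNNGAA, a motif bound by STAT dimers that reads the same on both strands, was present in 12 of 31 members (38.7%) and in 9.38% of all symbols. A match is a description of the letters in a window and not a bound site. The 5 windows below belong to the most abundant members described in depth whose window holds the core, and capitals mark the core in the orientation in which it was found. For IFITM3 (chr11:320811-321110, minus strand) it starts 52 and 35 bases before the gene's start, for SAMD9 (chr7:93117930-93118229, minus strand) 136 bases before, for IFIT3 (chr10:89327747-89328046, plus strand) 156 and 122 before, for TAP1 (chr6:32853655-32853954, minus strand) 134 and 128 before, where the matches overlap, and, with further windows of IFIT3 and TAP1 not shown, for IFIT5 (chr10:89414318-89414617, plus strand) 45, 19 and 4 before.
IFITM3: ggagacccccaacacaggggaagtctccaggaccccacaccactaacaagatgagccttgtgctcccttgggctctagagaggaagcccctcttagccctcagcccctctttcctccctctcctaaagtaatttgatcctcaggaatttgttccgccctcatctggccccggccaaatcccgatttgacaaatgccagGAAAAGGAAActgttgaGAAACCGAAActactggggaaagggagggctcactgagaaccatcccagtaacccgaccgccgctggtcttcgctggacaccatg
SAMD9: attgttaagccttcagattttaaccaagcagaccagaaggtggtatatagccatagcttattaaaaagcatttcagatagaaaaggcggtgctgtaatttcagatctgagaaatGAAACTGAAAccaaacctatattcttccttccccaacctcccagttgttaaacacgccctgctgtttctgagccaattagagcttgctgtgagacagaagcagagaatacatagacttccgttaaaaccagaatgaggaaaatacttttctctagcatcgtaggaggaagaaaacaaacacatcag
IFIT3: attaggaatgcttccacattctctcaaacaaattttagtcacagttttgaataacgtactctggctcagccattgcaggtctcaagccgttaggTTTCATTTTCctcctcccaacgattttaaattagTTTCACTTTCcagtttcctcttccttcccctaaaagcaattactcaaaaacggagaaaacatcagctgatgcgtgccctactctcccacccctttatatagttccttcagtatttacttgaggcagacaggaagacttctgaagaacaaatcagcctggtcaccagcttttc
TAP1: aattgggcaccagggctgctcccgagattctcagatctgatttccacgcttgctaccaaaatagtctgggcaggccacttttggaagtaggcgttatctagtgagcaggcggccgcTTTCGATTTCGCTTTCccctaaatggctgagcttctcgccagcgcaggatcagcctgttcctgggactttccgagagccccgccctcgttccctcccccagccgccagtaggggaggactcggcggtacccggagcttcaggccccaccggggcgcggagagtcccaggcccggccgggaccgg
IFIT5: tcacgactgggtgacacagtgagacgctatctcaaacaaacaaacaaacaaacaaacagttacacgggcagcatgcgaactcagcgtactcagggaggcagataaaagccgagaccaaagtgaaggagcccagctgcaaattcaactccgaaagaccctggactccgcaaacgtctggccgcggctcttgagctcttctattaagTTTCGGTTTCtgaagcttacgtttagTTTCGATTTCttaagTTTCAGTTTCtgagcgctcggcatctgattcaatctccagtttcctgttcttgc

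Libraries held 2229069 to 2730309 expected counts at 250 nM and 5887056 to 7351916 at 100 nM, of which 902 to 2472 and 2866 to 6099 belonged to the 39 members. Dose cannot be told apart from library set, since molecular identifiers appear in the file names of the 250 nM set and not in those of the 100 nM set. A group of 3 ribosomal DNA loci took 24.2% to 30.7% of counts in 10 libraries, and only 13.2% in gel replicate 1 at 250 nM and 14.3% in plastic replicate 1 at 100 nM. The library of gel replicate 1 at 250 nM also had the largest mitochondrial share of protein-coding counts, 8.11%, against 2.58% to 5.12% in the other 11. Mitochondrial RNA also differed by substrate, mainly at 250 nM. All 13 mitochondrially encoded genes were positive on gel at that dose (median log2 fold change 0.39), against 8 of 13 at 100 nM (median 0.07). Over both doses, where 0.795% of all genes were called, all 13 were positive (median 0.24) and 1 of them, MT-ND2, was called higher. Their summed level was 36250 to 57600 CPM on gel and 27430 to 35480 CPM on plastic at 250 nM, and 22760 to 24510 CPM on gel and 17100 to 27050 CPM on plastic at 100 nM. The cell type label was checked against marker genes. All 11 fibroblast markers passed the expression filter, led by VIM at 2214 CPM (counts scaled to library size), and 6 of them were called lower on gel over both doses. Their summed level was 1758 to 2863 CPM on gel and 4789 to 5251 CPM on plastic at 250 nM, and 4091 to 4783 CPM on gel and 5711 to 7492 CPM on plastic at 100 nM, so fibroblast markers moved with the substrate. None of 16 leukocyte markers passed, 7 of them were at 0 in all 12 libraries, and the highest, FCER1G, averaged 0.555 CPM. The summed leukocyte level was 0.331 to 1.94 CPM on gel and 0.785 to 3.31 CPM on plastic at 250 nM, and 0.138 to 0.726 CPM on gel and 0.465 to 2.69 CPM on plastic at 100 nM. Of 10 endothelial markers 1 passed (TEK, 20.9 CPM), of 13 epithelial markers 4 (led by KRT18, 72.9 CPM) and of 10 pericyte and smooth muscle markers 6 (led by ACTG2, 91.7 CPM). TEK, ACTG2 and CNN1 were lower on gel without overlap at both doses, against 1.94% of all genes. Their log2 fold changes were -1.21, -0.88 and -0.74 over both, with no call. Other markers went the other way: over both doses 3 of the 6 pericyte and smooth muscle markers and 3 of the 4 epithelial ones were positive. Of the 6, 1 was higher on gel without overlap at 100 nM, and of the 4, 1 at 250 nM. The part of these markers and of mitochondrial RNA in the substrate results below was not tested.

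The members were expressed at very unequal levels, and the IFITM family dominated. Per unit of transcript length, in TPM averaged over the 12 libraries, IFITM3 stood at 477.3, IFITM2 at 168.4 and IFI16 at 95.9, followed by ISG15 at 28.9, IFI6 at 27.5, IRF1 at 22.6, STAT2 at 14.3 and TAP1 at 10.9. IFITM1, IFITM2 and IFITM3, small membrane proteins that block the fusion of incoming viruses, made up 61.9% to 83.6% of the members' summed TPM in each library. The classic antiviral effectors were scarce: OAS3 averaged 2.999 TPM, MX1 1.995, IFIT2 1.41 and IFIT1 1.12. The order of neighbours in this ranking is loose, because ISG15, IFI6 and IRF1 each ranged over libraries far more than their means differed. ISG15 ran from 12.4 to 61.7 TPM, IFI6 from 3.23 to 77.2 and IRF1 from 7.70 to 55.1.

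Of the 39 members, 27 passed the expression filter and were tested, and 12 were too low. Near zero, with no group mean reaching 1 CPM, were 4 of those 12: ISG20, an exonuclease that degrades viral RNA, OAS2 and OASL of the oligoadenylate synthetase family, and BST2, the tether that holds budding viruses at the membrane. OAS2 had 13 counts in all 12 libraries together, BST2 13, OASL 11 and ISG20 25. OASL was at 0 in all 6 libraries at 250 nM, and ISG20, OAS2 and BST2 were at 0 in all 3 gel libraries at 250 nM. OAS2 was also at 0 in all 3 gel libraries at 100 nM. A count of 0 over a group of 3 libraries allows up to 0.402 CPM on gel and 0.423 CPM on plastic at 250 nM, and 0.152 CPM on gel at 100 nM, taking 3 counts over the group as the limit. The other 8 members below the filter were HERC6, IRF7, IFI44, IFI35, OAS1, IFI27, IFI44L and MX2, with 33 to 70 counts each over 12 libraries and a highest group mean between 1.12 CPM (OAS1) and 2.52 CPM (IFI44). IFI44 and its relative IFI44L were lower in every gel library than in every plastic library at 100 nM, IFI44 with 0.907, 0.412 and 0.428 CPM on gel against 1.47, 3.41 and 2.69 CPM on plastic.

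**Figure D1:**
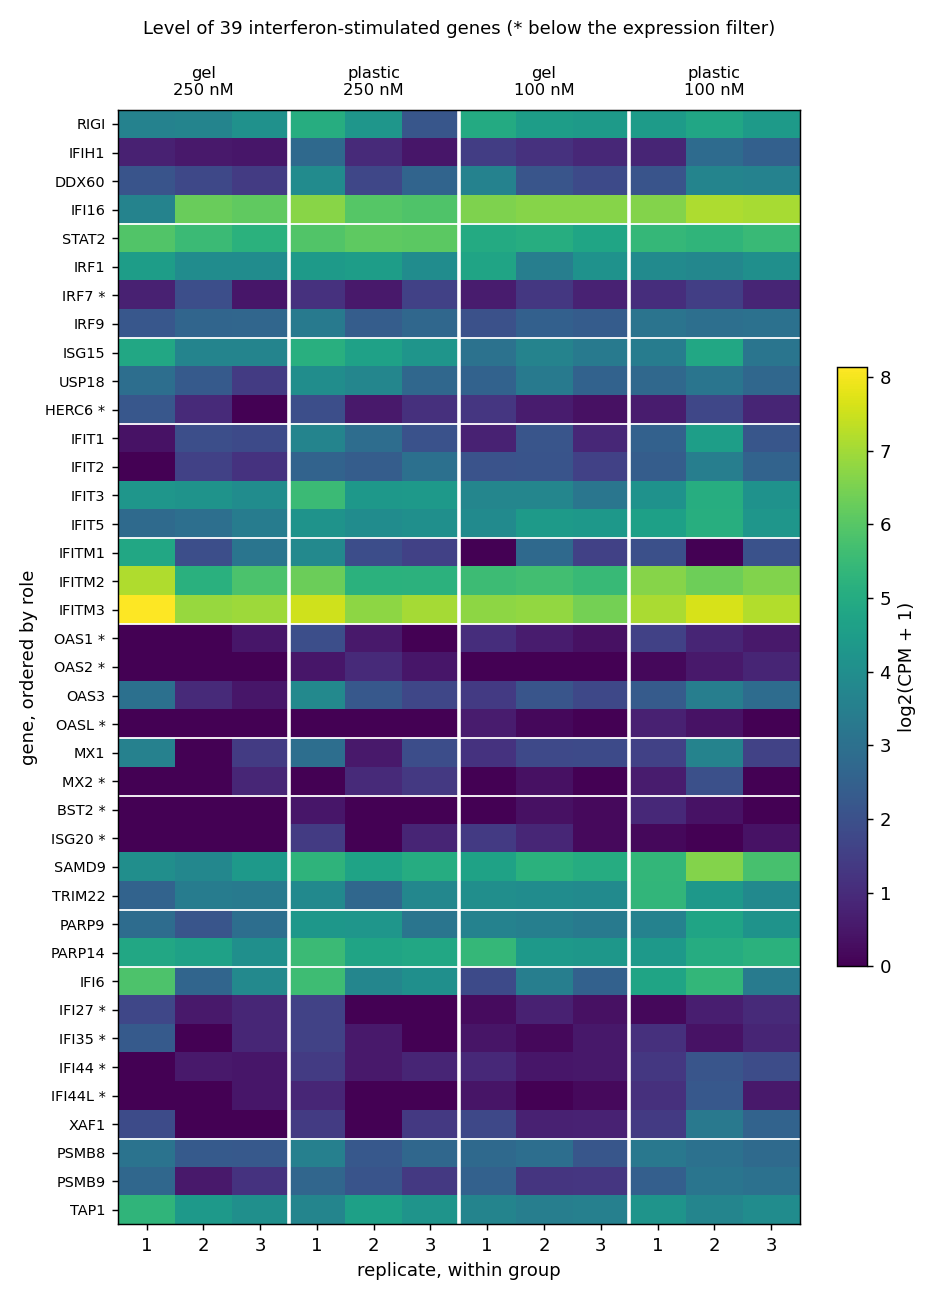
Level of the 39 genes in each of the 12 libraries, as log2(CPM + 1) by colour, with genes grouped by role down the page and libraries grouped across it; an asterisk marks the 12 genes below the expression filter. IFITM3, IFITM2 and IFI16 are the brightest lines, OAS2, OASL, BST2 and ISG20 are near 0, and IFI16 is dim in gel replicate 1 at 250 nM.

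Most of these genes had a lower fitted level on gel than on plastic, but no single member passed the test. Averaged over both doses, 24 of the 27 tested members had a negative log2 fold change of gel over plastic and the median was -0.63, against 50.7% negative and a median of -0.005 among all 12329 genes tested. In edgeR's quasi-likelihood test with Benjamini-Hochberg adjustment, 0 of 27 members were called under an adjusted p of 0.05, where 0.795% of all genes were. An unadjusted p under 0.05 was reached by 10 members, all lower on gel, against 6.72% of all genes that were lower at that level. The member nearest to a call was SAMD9 (edgeR, adjusted p = 0.0522). Other tools drew the line elsewhere: DESeq2 called 5 members lower (IFIT1, IFIT2, IFIT5, PARP9 and SAMD9) and 3.12% of all genes, limma-voom with sample weights 8 members and 6.50% of all genes, and limma-trend on log2(TPM + 1) 0 members and 0.43% of all genes. With RNA of whole cultures, fewer cells that express a gene and less RNA per cell cannot be told apart.

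At 250 nM, 21 of 27 tested members were negative with a median log2 fold change of -0.47, against 51.9% negative and a median of -0.02 over all genes. The edgeR test called 0 members, where 0.00811% of all genes were called, and 6 members had an unadjusted p under 0.05, all lower, against 4.49% of all genes. DESeq2 and limma-trend also called 0, with 0.754% and 0.0243% of all genes, and limma-voom called STAT2 and 1.31% of all genes. Over all 39 members, 8 were lower in every gel library than in every plastic library, against 7.62% of all genes tested, and 0 were higher without overlap, against 7.45%. Those 8 were STAT2, SAMD9, IFIT1, IFIT2, IFIT3, IFIT5, PARP9 and OAS2.

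At 100 nM, 24 of 27 were negative with a median of -0.73, against 51.1% and a median of -0.01 over all genes. The edgeR test called 0 members, where 0.219% of all genes were called, and 9 had an unadjusted p under 0.05, all lower, against 5.94% of all genes. DESeq2 and limma-trend called 0 here as well, with 1.28% and 0.0568% of all genes, and limma-voom called 6, with 3.63% of all genes. Over all 39 members, 14 lay lower on gel without overlap, against 9.38% of all genes tested, and 0 lay higher, against 9.62%. At both doses the same 7 of 39 were lower without overlap (STAT2, SAMD9, IFIT1, IFIT2, IFIT3, PARP9 and OAS2), against 1.94% of all genes.

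**Figure D2:**
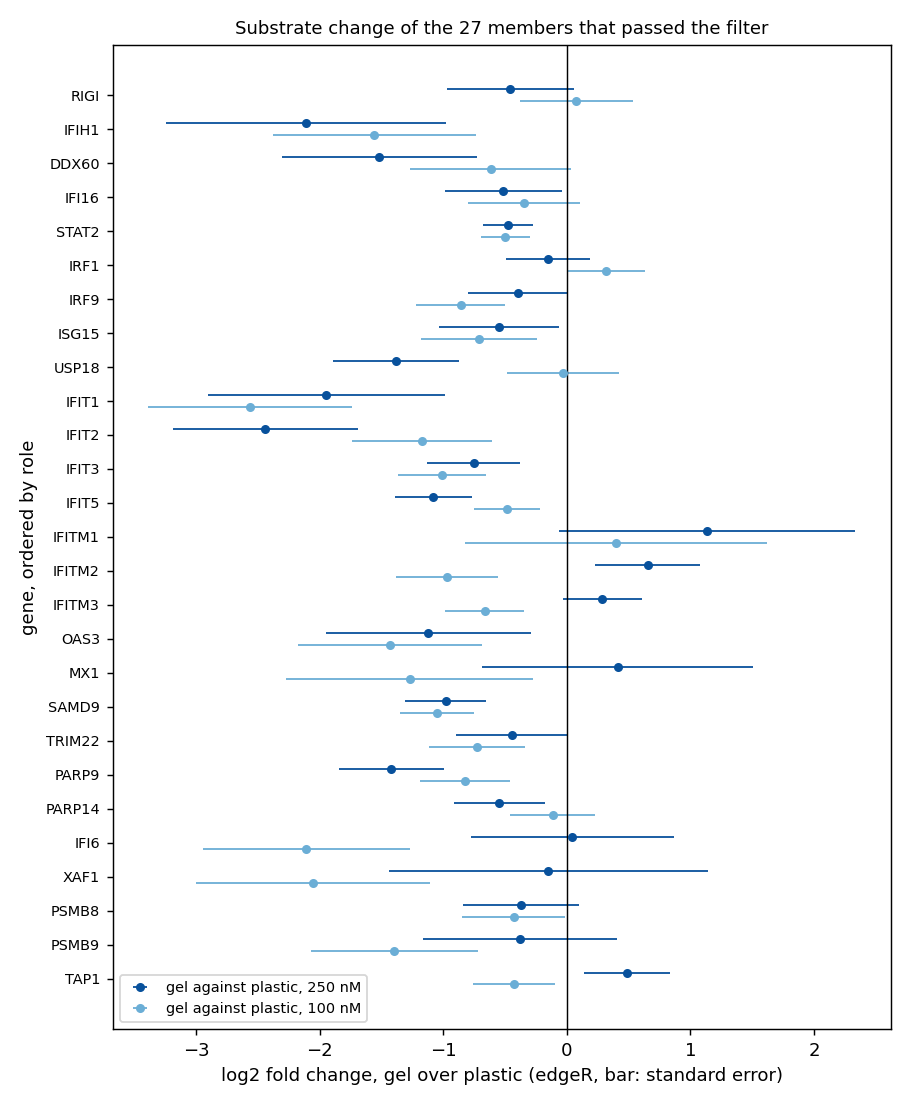
Log2 fold change of gel over plastic fitted by edgeR for the 27 tested genes, at 250 nM (dark) and 100 nM (light), with bars of 1 standard error and genes ordered by role. Points lie left of 0 for 21 genes at 250 nM and for 24 genes at 100 nM, and IFITM2 and IFITM3 lie on opposite sides of 0 at the 2 doses.

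Among the transcription factors, STAT2 and IRF9 of ISGF3 had lower means on gel at both doses and IRF1 overlapped throughout. STAT2 (chr12:56341597-56360155, minus strand), the STAT protein particular to type I and type III interferon signalling, had 59.1, 45.1 and 35.8 CPM on gel against 60.01, 68.5 and 66.8 CPM on plastic at 250 nM. At 100 nM it had 30.1, 32.6 and 26.7 CPM on gel against 41.9, 39.3 and 44.97 CPM on plastic. At each dose the 3 gel libraries lay below the 3 plastic ones, although gel replicate 1 at 250 nM came within 1 CPM of the lowest plastic library. The log2 fold change was -0.47 (SE 0.20) at 250 nM and -0.50 (SE 0.20) at 100 nM, with edgeR adjusted p = 0.137 over both doses. IRF9 (chr14:24161053-24166565, plus strand), the DNA-binding subunit of ISGF3, had 3.63, 5.34 and 5.48 CPM on gel and 9.11, 4.22 and 5.50 CPM on plastic at 250 nM, where the groups overlapped. At 100 nM they did not overlap, with 3.08, 4.67 and 4.13 CPM on gel and 7.74, 6.81 and 7.12 CPM on plastic (log2 fold change -0.86, SE 0.36, edgeR adjusted p = 0.464). IRF1, which responds to interferon gamma and to NF-kB, averaged 17.01 ± 4.44 CPM on gel against 19.1 ± 4.01 on plastic at 250 nM, and 17.5 ± 7.84 on gel against 13.99 ± 1.58 on plastic at 100 nM (SD, n = 3 each). IRF7, the amplifier of the type I response, was below the filter, with group means of 0.923 to 1.33 CPM.

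The IFIT family, proteins that bind foreign RNA and hold back its translation, had a negative fitted change for all 4 members at both doses, with a median log2 fold change of -1.51 at 250 nM and -1.09 at 100 nM. IFIT1 (chr10:89392546-89406486, plus strand) had 0.331, 2.91 and 2.53 CPM on gel against 11.6, 6.57 and 3.14 CPM on plastic at 250 nM. At 100 nM IFIT1 had 0.726, 3.44 and 0.856 CPM on gel against 4.80, 22.5 and 3.48 CPM on plastic. The gap between groups was narrow at both doses, the highest gel and the lowest plastic library being close to each other, and the plastic libraries spread widely. Its log2 fold change over both doses was -2.25 (SE 0.63, edgeR adjusted p = 0.117). That size moved with single libraries, to -1.61 without plastic replicate 2 at 100 nM and -2.79 without gel replicate 2 at 100 nM. IFIT2 (chr10:89283694-89309276, plus strand) had 0, 1.94 and 1.26 CPM on gel against 4.97, 4.22 and 7.07 CPM on plastic at 250 nM. At 100 nM IFIT2 had 3.27, 3.30 and 1.996 CPM on gel against 4.27, 10.1 and 5.07 CPM on plastic. No gel library reached a plastic one at either dose (log2 fold change over both doses -1.81, SE 0.47, edgeR adjusted p = 0.0928).

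IFIT3 (chr10:89327894-89340971, plus strand), which stabilises IFIT1 on RNA, had the largest mean TPM of the family over the 12 libraries, 8.21 against 6.24 for IFIT5. In the gel group at 100 nM IFIT5 stood higher, 7.73 against 4.62 TPM. IFIT3 had 18.5, 16.99 and 14.3 CPM on gel against 45.1, 19.2 and 19.6 CPM on plastic at 250 nM. At 100 nM IFIT3 had 12.3, 12.2 and 8.13 CPM on gel against 16.8, 32.4 and 16.6 CPM on plastic. The groups were apart at both doses, by less than 1 CPM at 250 nM, and 1 plastic library stood far above the others at each dose (over both doses log2 fold change -0.88, SE 0.26, edgeR adjusted p = 0.142). IFIT5 (chr10:89414586-89421001, plus strand), a less studied relative that binds RNA ending in a triphosphate, had 5.95, 6.80 and 9.69 CPM on gel against 16.97, 14.6 and 15.7 CPM on plastic at 250 nM. At 100 nM IFIT5 had 13.8, 20.5 and 19.2 CPM on gel against 23.5, 33.1 and 18.5 CPM on plastic. Its groups were apart at 250 nM (log2 fold change -1.08, SE 0.31, edgeR adjusted p = 0.279) and overlapped at 100 nM. The gene bodies of IFIT1, IFIT2 and IFIT3 overlap LIPA on the other strand, which had 1829 counts over the 12 libraries. No strand setting is given in the sources used here. RSEM gives a fractional count where reads match more than 1 place. Of 12 libraries, 0 held one for IFIT1, 0 for IFIT2 and 1 for IFIT3. Whether reads of LIPA entered their counts was not tested.

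SAMD9 (chr7:93099513-93118023, minus strand), an interferon-inducible antiviral protein of the cytosol, had 15.2, 12.6 and 20.2 CPM on gel against 38.1, 25.4 and 31.4 CPM on plastic at 250 nM. At 100 nM it had 24.9, 35.7 and 31.5 CPM on gel against 40.8, 97.1 and 53.2 CPM on plastic. All gel libraries were below all plastic libraries of their dose, and plastic replicate 2 at 100 nM was the highest of the 12. The log2 fold change was -0.98 (SE 0.33) at 250 nM and -1.05 (SE 0.30) at 100 nM, and averaged over both doses SAMD9 stood 2.02-fold lower on gel. That average missed the threshold under TMM scaling (edgeR adjusted p = 0.0522) and passed it under upper-quartile scaling (edgeR adjusted p = 0.0454). TRIM22, a ubiquitin ligase with antiviral activity, averaged 7.98 ± 2.63 CPM on gel and 10.6 ± 4.35 on plastic at 250 nM, and 14.6 ± 0.633 on gel and 24.1 ± 13.7 on plastic at 100 nM (SD, n = 3 each), with overlapping libraries at both doses. TRIM22 overlaps TRIM5 on the other strand.

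PARP9 (chr3:122527924-122564577, minus strand), a member of the ADP-ribosyltransferase family that works with the ubiquitin ligase DTX3L, had 6.28, 3.40 and 6.74 CPM on gel against 18.6, 18.3 and 7.85 CPM on plastic at 250 nM. At 100 nM PARP9 had 11.1, 10.4 and 8.98 CPM on gel against 11.2, 25.7 and 17.3 CPM on plastic. Gel lay below plastic in every library at each dose, though at 100 nM the highest gel and the lowest plastic library were almost level. Over both doses the log2 fold change was -1.12 (SE 0.28, edgeR adjusted p = 0.0804). PARP9 overlaps DTX3L on the other strand, which had 1643 counts over the 12 libraries. PARP14, which attaches single ADP-ribose units to proteins, averaged 22.8 ± 6.55 CPM on gel and 33.3 ± 10.98 on plastic at 250 nM, and 26.9 ± 12.8 on gel and 29.1 ± 8.03 on plastic at 100 nM (SD, n = 3 each), and its groups overlapped at both.

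**Figure D3:**
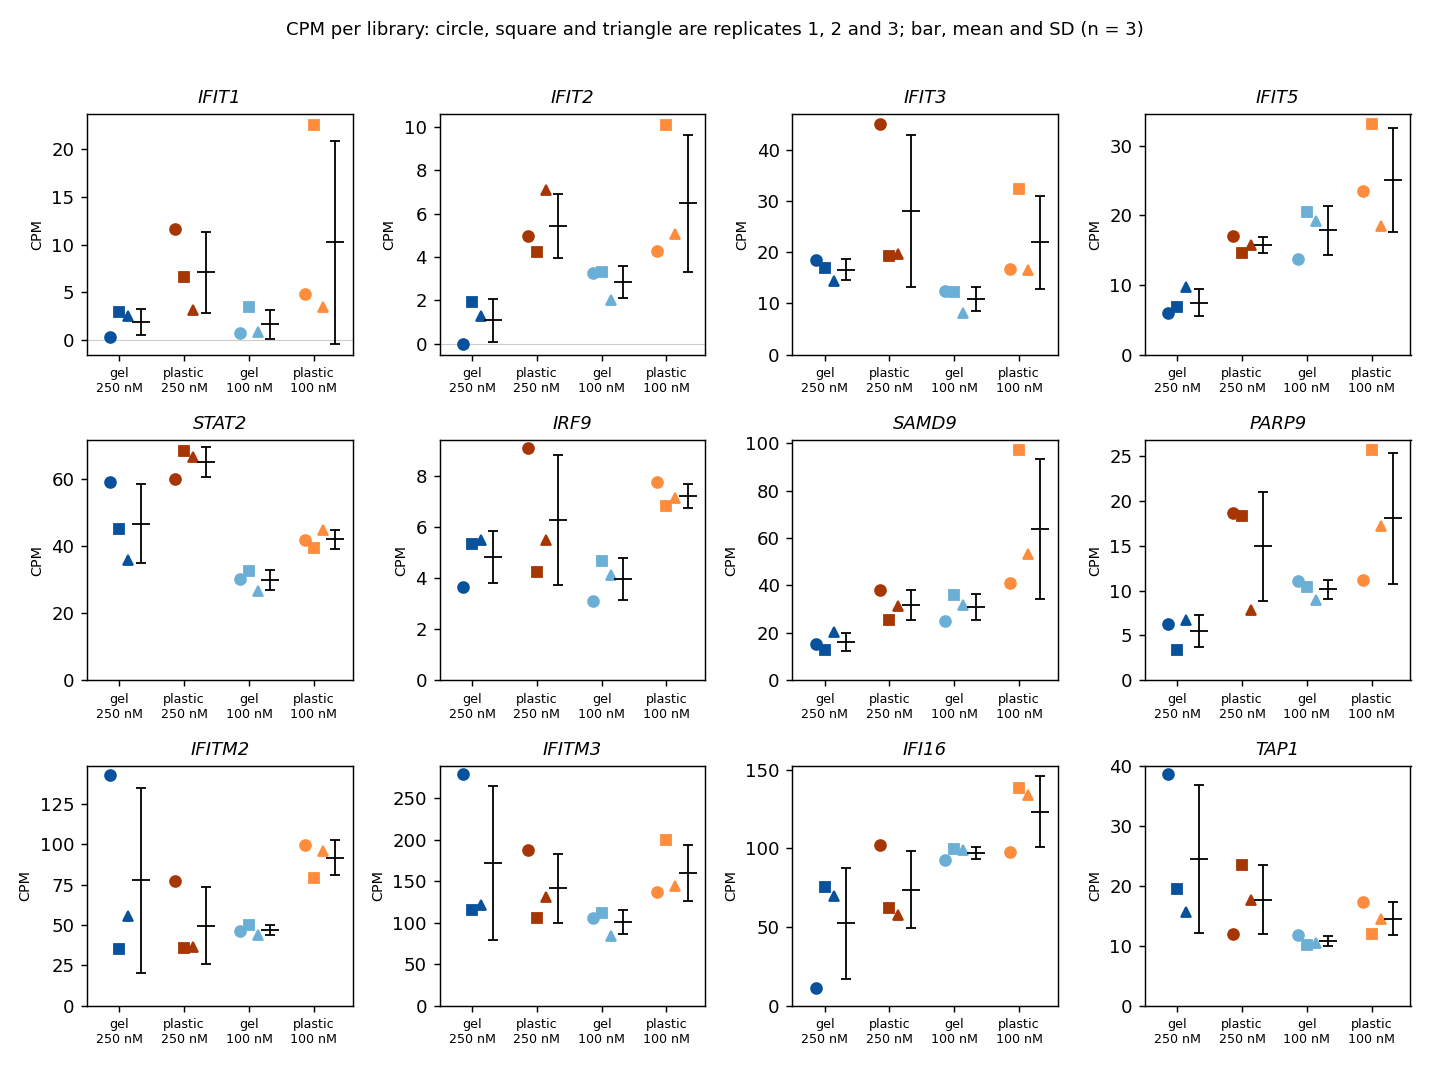
CPM in every library for 12 genes described in depth, with the groups from left to right gel at 250 nM, plastic at 250 nM, gel at 100 nM and plastic at 100 nM; symbols are replicates 1 to 3 and bars the mean with SD (n = 3). SAMD9, STAT2, PARP9, IFIT1, IFIT2 and IFIT3 lie lower on gel without overlap at both doses, while IFITM2, IFITM3 and IFI16 have 1 gel library at 250 nM far from the other 2.

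For IFITM2 and IFITM3 the fitted substrate change had opposite signs at the 2 doses. IFITM3 (chr11:319669-327537, minus strand) had 279.2, 115.6 and 121.8 CPM on gel against 187.5, 106.1 and 130.4 CPM on plastic at 250 nM. At 100 nM IFITM3 had 105.6, 112.2 and 84.5 CPM on gel against 136.4, 199 and 143.8 CPM on plastic. At 100 nM every gel library was below every plastic one, whereas at 250 nM gel replicate 1 was the highest of all 12 and the other gel libraries lay among the plastic ones. IFITM2 (chr11:307631-315272, plus strand) had 142.8, 34.96 and 55.6 CPM on gel against 77.4, 35.7 and 36.1 CPM on plastic at 250 nM. At 100 nM IFITM2 had 46.6, 50.2 and 43.9 CPM on gel against 99.5, 79.5 and 96.1 CPM on plastic, with a wide gap between the groups. The log2 fold change of IFITM2 was 0.65 (SE 0.43) at 250 nM and -0.97 (SE 0.41) at 100 nM.

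IFITM2 was the only one of 27 tested members with an unadjusted p under 0.05 in the test of the difference between those substrate effects, where 6.25% of all genes had one. The edgeR adjusted p was 0.755, and 0 members and 0% of all genes were called in that test. DESeq2, limma-voom and limma-trend also called 0 members there, with 1, 3 and 0 at an unadjusted p under 0.05. Without gel replicate 1 at 250 nM the log2 fold change at 250 nM became -0.146 for IFITM2 and -0.268 for IFITM3, so the positive sign of both rested on that library. IFITM1 was counted at 0 in gel replicate 1 and plastic replicate 2 at 100 nM and at 28.1 CPM in gel replicate 1 at 250 nM. The transcripts of the family are alike: 11 of 12 libraries held a fractional count for IFITM3, 7 for IFITM2 and 10 for IFITM1, as RSEM gives where reads match more than 1 place, and the annotated IFITM2 locus contains IFITM1. How those reads were divided makes the split within the family uncertain.

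The sensors of viral nucleic acid were mostly lower in value on gel, without a call. IFI16 (chr1:158999968-159055155, plus strand), a DNA sensor of the nucleus and cytosol, had 11.6, 75.7 and 69.5 CPM on gel against 101.8, 61.96 and 57.7 CPM on plastic at 250 nM. At 100 nM IFI16 had 92.9, 99.5 and 98.7 CPM on gel against 97.4, 138.6 and 133.9 CPM on plastic. The groups overlapped at both doses, and gel replicate 1 at 250 nM, the library with the highest IFITM2 and IFITM3, had the lowest IFI16 of all. RIGI, the sensor of RNA with a free triphosphate, averaged 13.1 ± 2.89 CPM on gel and 18.04 ± 14.4 on plastic at 250 nM, and 24.3 ± 5.29 on gel and 22.98 ± 3.70 on plastic at 100 nM. IFIH1 (MDA5), the sensor of long double-stranded RNA, averaged 0.523 ± 0.124 CPM on gel and 2.38 ± 2.97 on plastic at 250 nM, and 1.30 ± 0.483 on gel and 3.86 ± 2.77 on plastic at 100 nM (SD, n = 3 each throughout). DDX60, a helicase linked to RIGI signalling, averaged 2.47 ± 0.810 CPM on gel and 7.17 ± 6.13 on plastic at 250 nM, and 5.75 ± 4.78 on gel and 8.73 ± 4.68 on plastic at 100 nM. For IFIH1 and DDX60 the plastic mean at each dose came from libraries several-fold apart.

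The ISG15 system tags proteins with the ubiquitin-like modifier ISG15. ISG15 averaged 17.2 ± 9.45 CPM on gel and 25.5 ± 7.99 on plastic at 250 nM, and 9.32 ± 1.99 on gel and 15.3 ± 11.3 on plastic at 100 nM (SD, n = 3 each). USP18, the protease that removes ISG15 and also dampens the receptor, averaged 4.06 ± 2.47 CPM on gel and 10.9 ± 4.84 on plastic at 250 nM, but 6.23 ± 2.35 on gel and 6.39 ± 1.31 on plastic at 100 nM. The substrate groups of both genes overlapped at both doses. Among the enzymes and GTPases that attack viral RNA and capsids, OAS3 averaged 2.78 ± 3.62 CPM on gel and 6.45 ± 5.92 on plastic at 250 nM, and 2.50 ± 0.904 on gel and 6.85 ± 3.14 on plastic at 100 nM, apart only at 100 nM. MX1, a dynamin-like GTPase, reached 10.9 CPM in gel replicate 1 at 250 nM, 0 in gel replicate 2 of the same group, and 11.5 CPM in plastic replicate 2 at 100 nM.

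IFI6, a small membrane protein that protects against cell death, had 57.5, 5.34 and 13.1 CPM on gel against 47.2, 12.2 and 15.7 CPM on plastic at 250 nM. At 100 nM IFI6 had 2.54, 10.2 and 4.71 CPM on gel against 26.02, 40.9 and 9.34 CPM on plastic. Its libraries spread widely within each group, gel replicate 1 at 250 nM being the highest of the 12, and the substrate groups overlapped at both doses. XAF1, which promotes apoptosis, averaged 0.881 ± 1.53 CPM on gel and 1.07 ± 0.932 on plastic at 250 nM, and 1.25 ± 0.958 on gel and 5.17 ± 3.61 on plastic at 100 nM (SD, n = 3 each). Of the antigen-processing genes, the immunoproteasome subunits PSMB8 and PSMB9 were negative at both doses (log2 fold changes -0.37 and -0.38 at 250 nM, -0.43 and -1.39 at 100 nM) with overlapping groups. TAP1 (chr6:32845209-32853978, minus strand), a subunit of the transporter that carries peptides to MHC class I, had 38.7, 19.4 and 15.6 CPM on gel against 12, 23.5 and 17.7 CPM on plastic at 250 nM. At 100 nM TAP1 had 11.8, 10.2 and 10.6 CPM on gel against 17.4, 11.9 and 14.4 CPM on plastic. Its groups were apart only at 100 nM, with gel lower, and gel replicate 1 at 250 nM was again the highest of the 12. PSMB9 overlaps both PSMB8 and TAP1 on the other strand, and TAP1 had a fractional count in 11 of 12 libraries.

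Within a group, many members were highest in the same library. Plastic replicate 1 at 250 nM held the highest value of its group for 23 of 27 tested members, against 38.2% of all genes, and its summed CPM over the 36 members outside the IFITM family was 600.5, against 386 and 357 in the other plastic libraries at 250 nM. Plastic replicate 2 at 100 nM was highest in its group for 18 of 27 members, against 28.3% of all genes, with a sum of 666 CPM against 436 and 473 in the other plastic libraries at that dose. On gel, replicate 1 at 250 nM was highest for 18 of 27 (39.9% of all genes) and replicate 2 at 100 nM for 15 of 27 (31.7%). The gel sums outside the IFITM family were 367, 285 and 277 CPM at 250 nM and 368, 355 and 316 CPM at 100 nM. All 3 gel sums lay below all 3 plastic sums at 100 nM, and at 250 nM gel replicate 1 lay above plastic replicate 3. Ribosomal DNA and mitochondrial shares stood apart in gel replicate 1 at 250 nM and ribosomal DNA alone in plastic replicate 1 at 100 nM. Without those 2 libraries, a choice made after seeing the data, 28 of 28 tested members were negative at 250 nM, against 52.2% of all genes, and 25 of 28 at 100 nM, against 48.8%. Without plastic replicate 1 at 250 nM instead, only 18 of 30 were negative at 250 nM, against 51.5% of all genes, so the lean at that dose depended on which library was in the fit. Over both doses, without the 2 libraries low in ribosomal DNA, edgeR called 5 members lower on gel and 1.98% of all genes. The 5 were IFIT2, OAS3, PARP9, SAMD9 and STAT2 (smallest adjusted p = 0.0195, for SAMD9). Leaving out gel replicate 1 at 250 nM alone gave calls for OAS3 and STAT2 over both doses (1.92% of all genes), and leaving out plastic replicate 1 at 100 nM alone gave a call for SAMD9 (0.562% of all genes). The other 10 libraries, left out in turn, gave 0 calls of members and 0.275% to 0.855% of all genes.

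**Figure D4:**
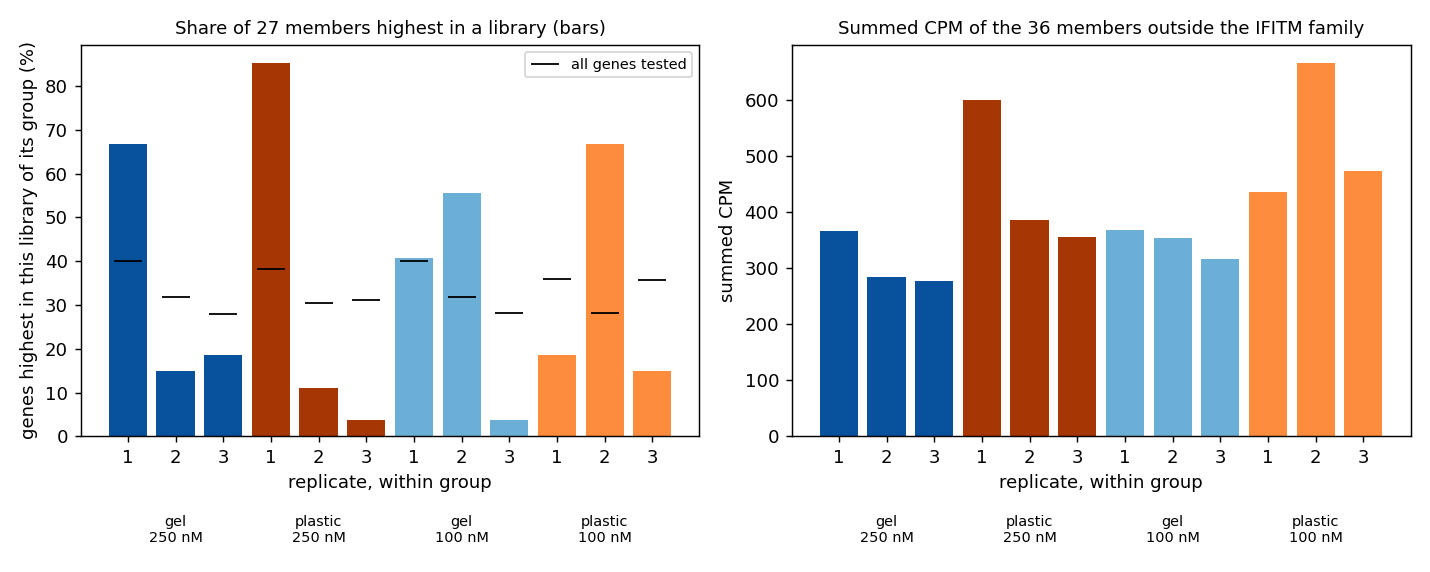
Left, share of the 27 tested genes that were highest in each library of its group (bars), with the same share over all 12329 genes tested (short dashes). Right, summed CPM of the 36 genes outside the IFITM family in each library, where plastic replicate 1 at 250 nM (600.5) and plastic replicate 2 at 100 nM (666) stand above the rest.

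The dose comparisons moved few members, and in both directions. On gel, edgeR called 2 members higher at 250 than at 100 nM, against 6.92% of all genes, and 1 lower, against 6.89%, so the share of members called was close to the background. STAT2 was higher at 250 nM, 46.7 ± 11.7 against 29.8 ± 2.97 CPM at 100 nM (log2 fold change 0.65, SE 0.20, edgeR adjusted p = 0.0462). TAP1 was also higher, 24.6 ± 12.4 against 10.8 ± 0.847 CPM (log2 fold change 1.19, SE 0.34, edgeR adjusted p = 0.0329). IFIT5 was lower, 7.48 ± 1.96 against 17.8 ± 3.56 CPM (log2 fold change -1.26, SE 0.30, edgeR adjusted p = 0.0169). For all 3 the gel libraries of the doses did not overlap.

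These calls were fragile. The call of STAT2 was lost when any library but gel replicate 3 at 250 nM was left out. The call of TAP1 was lost without gel replicate 1 at 250 nM, where the log2 fold change became 0.663, and without plastic replicate 3 at 250 nM or any gel library at 100 nM. The call of IFIT5 was lost without gel replicate 2 at 100 nM, where the log2 fold change was -1.15 (edgeR adjusted p = 0.0548). On plastic, edgeR called 0 members, where 4.09% of all genes were called higher at 250 nM and 4.52% lower. DESeq2 called 2 there (SAMD9 and STAT2) and 13.5% of all genes, limma-voom 9 and 25.7%, and limma-trend 0 and 5.69%. Without gel replicate 1 at 250 nM edgeR called 5 of 31 members (IFI16, IFITM2, SAMD9, STAT2 and TRIM22), a share near the 16.3% of all genes called, and without plastic replicate 1 at 100 nM it called 1 (SAMD9) and 5.62% of all genes. STAT2 on plastic averaged 65.1 ± 4.50 CPM at 250 nM and 42.1 ± 2.82 CPM at 100 nM, without overlap, and SAMD9 averaged 31.6 ± 6.37 CPM at 250 nM and 63.7 ± 29.6 CPM at 100 nM, also without overlap (edgeR adjusted p = 0.0631 and 0.0571). Whether any of these differences belongs to dose or to library set cannot be told apart.

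The ligands of the pathway were almost absent. Of 9 interferon genes, 8 (IFNA1, IFNA2, IFNB1, IFNK, IFNG, IFNL1, IFNL2 and IFNL3) had 0 counts in all 12 libraries. IFNE, an interferon best known from the reproductive tract, was counted at 1.95 ± 1.82 CPM on gel and 1 ± 0.521 on plastic at 250 nM, and at 4.13 ± 0.598 on gel and 1.55 ± 1.11 on plastic at 100 nM (SD, n = 3 each). Its gene overlaps MIR31HG on the same strand, which had 518 counts, and whether reads of that RNA entered the count of IFNE was not tested.

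Receptors and JAK-STAT components were expressed, and none was called by substrate. Of 15 genes 13 were tested, 0 were called in any gel comparison (0 with an unadjusted p under 0.05), and their median log2 fold change over both doses was -0.15 with 9 of 13 negative. JAK1, the kinase shared by type I and type II receptors, averaged 118.8 ± 32.4 CPM on gel and 143.1 ± 20.5 on plastic at 250 nM, and 155.5 ± 10.3 on gel and 154.3 ± 18.3 on plastic at 100 nM (SD, n = 3 each). IFNAR1 averaged 57.6 ± 2.64 CPM on gel and 58.8 ± 10.9 on plastic at 250 nM, and 75.6 ± 3.38 on gel and 61.3 ± 7.96 on plastic at 100 nM. By dose, 2 of 13 were called higher and 1 lower at 250 nM on each substrate, where 6.92% of all genes were called higher and 6.89% lower on gel, and 4.09% higher and 4.52% lower on plastic. STAT3, the factor of interleukin 6 signalling, was 2.16-fold higher at 250 nM on gel and 2.62-fold higher on plastic (edgeR adjusted p = 0.00738 and 0.00453). IL10RB, a chain shared with the type III interferon receptor, was 2.15-fold and 2.26-fold higher on the same substrates (edgeR adjusted p = 0.00991 and 0.0102). IFNGR1, the ligand-binding chain of the interferon gamma receptor, was 2.83-fold lower at 250 nM on gel and 4.17-fold lower on plastic (edgeR adjusted p = 0.0279 and 0.0138).

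Of 20 genes of nucleic acid sensing 13 were tested, 0 were called by substrate, and 7 of 13 were negative over both doses with a median of -0.08. CGAS, which makes the second messenger that activates STING, had 0, 0.485 and 0.421 CPM on gel against 2.07, 2.35 and 1.96 CPM on plastic at 250 nM. At 100 nM CGAS had 4.54, 3.71 and 2.71 CPM on gel against 4.67, 8.67 and 2.38 CPM on plastic. The groups were apart at 250 nM only, at very low counts (log2 fold change -2.84, SE 0.92, edgeR adjusted p = 0.321). At that dose 2 of the 13 were lower on gel without overlap, against 7.62% of all genes, and 1 was higher, against 7.45%. The higher one was IKBKE, with 10.24, 6.80 and 8.85 CPM on gel against 3.725, 3.755 and 3.142 CPM on plastic. CGAS and TBK1, the kinase below STING, were the 2 of 13 called lower at 250 than at 100 nM on gel, against 6.89% of all genes (edgeR adjusted p = 0.0150 and 0.0174). The most abundant were EIF2AK2 (PKR), the kinase that stops translation on double-stranded RNA, MAVS, the adaptor of RIGI, ADAR, which edits double-stranded RNA, and TRIM25, a ubiquitin ligase of RIGI, at 103, 82.1, 61.6 and 36.4 CPM over the 12 libraries. Their log2 fold changes over both doses lay between -0.16 and 0.13.

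In a list of antigen presentation genes, nearly all of MHC class I but with CIITA, CD74 and HLA-DRA of class II, 17 of 22 genes were tested, 0 were called by substrate and 10 of 17 were negative over both doses, with a median of -0.08. B2M, the invariant light chain of MHC class I, had 1403, 1029 and 980.6 CPM on gel against 1626, 1485 and 1384 CPM on plastic at 250 nM. At 100 nM B2M had 1032, 1029 and 853.9 CPM on gel against 1692, 1697 and 1508 CPM on plastic. The groups were far apart at 100 nM and overlapped at 250 nM, where gel replicate 1 reached the plastic range (over both doses log2 fold change -0.57, SE 0.13, edgeR adjusted p = 0.0563). At 100 nM 2 of the 17 were lower on gel without overlap, against 9.38% of all genes, and 1, CANX, was higher, against 9.62%. HLA-B, a heavy chain, averaged 352 ± 190.3 CPM on gel and 399.2 ± 80.5 on plastic at 250 nM, and 272.6 ± 42.9 on gel and 431.1 ± 73.3 on plastic at 100 nM (SD, n = 3 each), though reads of HLA genes are hard to assign. By dose on gel, 2 of 17 were called higher, against 6.92% of all genes, and 3 lower, against 6.89%. PSME2 and PSMB10 of the proteasome were higher at 250 nM (2.62-fold and 2.26-fold) and ERAP1, CALR and PDIA3 lower (8.02-fold, 1.66-fold and 2.42-fold). On plastic, 3 of 17 were called higher, against 4.09% of all genes, and 1 lower, against 4.52%. PSME2, HLA-E and CANX were higher at 250 nM (2.23-fold, 1.64-fold and 1.55-fold) and CALR lower (1.79-fold).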

How the data were processed

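The authors deposited an expected count and a TPM value per gene and library, in RSEM columns per the file headers. Trimmomatic, STAR, RSEM, DESeq2 1.36.0 and GRCh38 are named in the submitters' processing notes; the annotation release, the strand setting and any collapsing of molecular identifiers were not given in the sources used here. Symbols came from the supplied name table and gene coordinates from GENCODE 29. Expected counts were rounded and tested in R 4.3.3 with edgeR 4.0.16: filterByExpr over 4 groups (12329 genes), TMM, robust quasi-likelihood fit with 8 residual degrees of freedom, Benjamini-Hochberg adjustment over all genes tested, calls under 0.05. The common biological coefficient of variation was 0.299, and log2 changes had median standard errors of 0.33 (100 nM), 0.36 (250 nM) and 0.25 (both doses). CPM is scaled to the effective library size. TPM was used only to rank levels and, in limma 3.58.1, on log2(TPM + 1). Alternatives were RLE and upper-quartile factors, no filter, DESeq2 1.42.0, limma-voom with sample weights, limma-trend, the 6 libraries of a comparison alone, a replicate block, no ribosomal DNA loci, and each library left out. Limits for a count of 0 cover counting error only.

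Members, lists and alternatives were chosen with earlier results of these data known. Described in depth were members called in any comparison, the 5 with the largest mean CPM and, per gel comparison, up to 8 whose groups did not overlap; from other lists, called genes and up to 4 of largest mean CPM. Not every such gene is named, and 1 is not reported here.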

Additional observations from a re-analysis of the deposited data

How the results depend on the processing

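The sign of the members' median by substrate was kept: their median log2 fold change stayed negative under every alternative run, from -0.896 to -0.517 at 100 nM, -0.946 to -0.211 at 250 nM and -1.017 to -0.524 over both doses. The number of members negative at 250 nM was less steady. It was 18 of 30 without plastic replicate 1 at 250 nM (51.5% of all genes) and 28 of 28 without both libraries low in ribosomal DNA (52.2%). The number called was not kept either. Percentages in brackets are the shares of all genes called in the same setting. By substrate at 100 nM (0 called), testing without a filter gave 3 (0.802%) and limma-voom with sample weights 6 (3.63%). At 250 nM (0) limma-voom gave 1 (1.31%). Over both doses (0) upper-quartile factors gave 1 (0.925%), no filter 5 (1.63%), DESeq2 5 (3.12%) and limma-voom 8 (6.50%). Leaving out 1 library gave 0 to 2 there (0.275% to 1.92%). For the difference between doses (0) no filter gave 1 (0.219%). By dose on gel (3) no filter gave 5 (7.62%), limma-trend on TPM 1 (11.7%) and the 6 gel libraries alone 0 (4.56%). Leaving out 1 library gave 0 to 3 there (5.86% to 16.1%). By dose on plastic (0) no filter gave 3 (5.09%), DESeq2 2 (13.5%), limma-voom 9 (25.7%) and the 6 plastic libraries alone 1 (14.6%). Leaving out 1 library gave 0 to 5 there (0.854% to 16.3%). Leaving out both libraries low in ribosomal DNA was an alternative chosen after seeing the data. Of 28 members tested it gave 5 over both doses (1.98%), 1 by dose on gel (14.6%) and 4 by dose on plastic (17%). The cause of these differences was not tested, except that fewer libraries enter a fit where some are left out.

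Signs were followed gene by gene only for the 5 most abundant members and those described in depth as not overlapping in that comparison. Among these, signs reversed at 250 nM for IFITM3 (-0.057 with limma-voom, -0.268 without gel replicate 1 at 250 nM, -0.277 without both low libraries), IFITM2 (-0.146 and -0.157 in the last 2 of these) and IFI16 (0.055 with limma-voom). Over both doses they reversed for IFITM2 (0.002 without gel replicate 2 and 0.066 without plastic replicate 1 at 250 nM). Members outside that set reversed too. In the main fit 6 of 27 were positive at 250 nM, but 30 of 31 were negative without gel replicate 1 at 250 nM and 28 of 28 without both low libraries. With 1 library left out the range was -0.268 to 0.526 for IFITM3 and -0.146 to 1.104 for IFITM2 at 250 nM, and -0.555 to 0.066 for IFITM2 over both doses. With a replicate block the counts were 0, 0, 0 and 0 for the substrate comparisons and their difference. By dose they were 2 on gel (STAT2 lost), where 13.7% of all genes were called, and 0 on plastic, where 8.95% were. The numbers share no stated batch: 4 of 12 same-number pairs correlated above 0.1 (range -0.236 to 0.141), and 5 of 12 correlated best with their own number. The 12 genes below the filter entered only the fits without a filter or with fewer libraries, at very low counts.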

Other observations

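Most of the interferon-stimulated genes listed outside the 39 had the same direction by substrate, but not the most abundant ones at 100 nM. Of 47 further genes 30 passed the filter, 26 of them were negative over both doses (50.7% of all genes) with a median log2 fold change of -0.56, 0 were called by edgeR, and 13 had an unadjusted p under 0.05, all lower (6.72% of all genes). At 100 nM 10 of the 30 were lower on gel without overlap (9.38% of all genes) and 2 higher (9.62%). The 2 higher were the most abundant of the list. SLFN5 had 166.4, 160.7 and 174.4 CPM on gel against 97.68, 113.5 and 119.2 CPM on plastic. SP100 had 143.1, 162.2 and 169 CPM on gel against 132.9, 133 and 100.1 CPM on plastic. At 250 nM the groups of both genes overlapped. SLFN5 averaged 67.5 ± 39.5 CPM on gel and 74.0 ± 4.43 on plastic there, and SP100 133.1 ± 34.9 on gel and 118.2 ± 21.05 on plastic (SD, n = 3 each). Of the 30, 8 were lower without overlap at 250 nM (7.62%) and 0 higher (7.45%). Lower without overlap at both doses were 5 of the 30 (1.94% of all genes): EPSTI1, PLSCR1, NMI, GBP1 and GBP3. These 5 were chosen after their values were seen. EPSTI1, an interferon-induced protein, had 0.331, 0 and 0 CPM on gel against 4.14, 2.82 and 1.96 CPM on plastic at 250 nM, and 0.544, 1.51 and 1.57 CPM on gel against 2.67, 4.18 and 1.58 CPM on plastic at 100 nM (edgeR adjusted p = 0.0646 over both doses). PLSCR1, a phospholipid scramblase with antiviral activity, had 3.31, 4.37 and 5.90 CPM on gel against 18.2, 6.10 and 10.2 CPM on plastic at 250 nM, and 6.71, 10.2 and 5.70 CPM on gel against 14.4, 18.1 and 13.5 CPM on plastic at 100 nM (edgeR adjusted p = 0.0705). GBP1, a guanylate-binding protein that acts on intracellular pathogens, averaged 21.6 ± 15.2 CPM on gel and 61.3 ± 24.5 on plastic at 250 nM, and 42.4 ± 0.986 on gel and 66.5 ± 14.6 on plastic at 100 nM (SD, n = 3 each), with only 4.30 CPM in gel replicate 1 at 250 nM. The chemokine gene CXCL9 was at 0 in all 12 libraries. The response element core was present in the promoter window of 23 of the 36 further genes with a window (63.9%), and in 1 of 13 receptor and JAK-STAT genes.

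By dose on gel, 1 of the 30 further genes was called higher at 250 nM, against 6.92% of all genes, and 5 lower, against 6.89%. IFI30, a lysosomal thiol reductase, was 4.56-fold higher, and TRIM14, an adaptor of antiviral signalling, was 4.88-fold lower (edgeR adjusted p = 0.0256 and 0.00297). NMI, NT5C3A, SLFN5 and XRN1 were also lower by 2.04 to 8.56-fold. The largest fold was that of NMI, which was near 0 on gel at 250 nM (0, 0.4855 and 0.8428 CPM). On plastic 1 of 30 was called lower, against 4.52% of all genes, and 0 higher, against 4.09%: TRIM14 was 2.59-fold lower at 250 nM. The abundant SP100, a component of nuclear bodies, and ZC3HAV1, an antiviral zinc finger protein, averaged 133 and 74.7 CPM over the 12 libraries and were called in no comparison.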
